A study of Mus musculus with 12 samples.

Results

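The genes described here encode the subunits of the mitochondrial respiratory chain and of ATP synthase, with the assembly factors that share their symbols. Members were taken by symbol, namely those that begin with Nduf, Uqcr, Cyc1, Cox4 to Cox8 or Atp5, and Sdha to Sdhd. A gene was kept when a probe had a detection p-value under 0.05 on at least 3 of 12 arrays, and its probe with the highest mean signal was used. Of 88 annotated genes 80 were kept, among 11971 genes measured in all. By symbol 42 of the 80 belong to complex I, 3 to complex II, 7 to complex III, 12 to complex IV and 16 to complex V, and 78 were detected on all 12 arrays. Ndufa4 is counted with complex I by its symbol, although its protein is now placed in complex IV, and Ndufs5-ps is the symbol of a pseudogene. The other 8 genes had probes detected on no more than 1 array, so no level is given for them: the core complex I subunit Ndufs1, the complex I assembly factor Ndufaf6, the flavoprotein of complex II (Sdha), the Rieske iron-sulfur protein of complex III (Uqcrfs1), and the tissue-restricted complex IV isoforms Cox4i2, Cox7b2, Cox8b and Cox8c.

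RNA came from prostate cells of TRAMP mice that the labels call CD45+, CD45 being the surface marker of leukocytes. These are C57Bl/6 mice with a viral oncogene driven in prostate epithelium by the probasin promoter, and they develop prostate adenocarcinoma. Every mouse had received an adoptive T cell transfer (ACT), and no group without a transfer was analysed here. The groups were Tumor+Allo/Y ACT at 28 days (samples 10, 11 and 12), Tumor+Allo/Y ACT at 1 week (samples 7, 8 and 9), Tumor ACT at 1 week (samples 4, 5 and 6) and Allo/Y ACT at 1 week (samples 1, 2 and 3). What Allo/Y stands for is not spelled out in the labels, and no age is given. The series design gives 3 mice per group, and each group has 3 arrays.

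The respiratory chain sits in the inner mitochondrial membrane. Complex I takes electrons from NADH and complex II takes them from succinate, complex III hands them to cytochrome c, and complex IV passes them to oxygen. Complexes I, III and IV pump protons out of the matrix, and complex V, the ATP synthase, makes ATP as the protons flow back. Most subunits are encoded in the nucleus, and a few of those in complexes I, III, IV and V are encoded by mitochondrial DNA. T cells and macrophages are known to shift between oxidative phosphorylation and glycolysis when they are activated.

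Promoters of nuclear respiratory genes often carry sites for nuclear respiratory factor 1 (NRF1) and for factors of the ETS family such as GABP. RefSeq (build GRCm38.p6) gave 73 promoters for 68 of the 80 members, and the 250 bases before each start were searched on both strands. The NRF1 motif (GCGC, any base, then TGCGC) lay in 13 member promoters (17.8%), against 3.74% of all 32851 promoters and 6.98% of the 12326 promoters of the kept genes. The ETS motif CCGGAAG lay in 14 member promoters (19.2%), against 6.91% of all promoters and 12.1% of those of kept genes. Both motifs were found in 3 member promoters, and in 0 of them did the matches overlap. Among members called in none of the 5 comparisons below the NRF1 motif lay in 10 of 48 promoters, among those called lower in any comparison in 2 of 19, and among those called higher in 1 of 6. A match is a string of letters and was not tested as a binding site. The promoters of 3 genes that the results turn on are printed here, since Atp5k was higher than in Allo/Y in every other group, Uqcr11 was lower in every other group, and Cox7a1 had the lowest difference at day 28. Capitals mark a motif match. They lie at chr5:108434400-108434649 (minus strand), chr10:80406822-80407071 (minus strand) and chr7:30183921-30184170 (plus strand).
Atp5k: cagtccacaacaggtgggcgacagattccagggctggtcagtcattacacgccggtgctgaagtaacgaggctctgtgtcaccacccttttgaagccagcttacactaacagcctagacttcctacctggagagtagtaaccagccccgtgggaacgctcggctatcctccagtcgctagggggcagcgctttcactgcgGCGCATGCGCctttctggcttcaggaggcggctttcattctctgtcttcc
Uqcr11: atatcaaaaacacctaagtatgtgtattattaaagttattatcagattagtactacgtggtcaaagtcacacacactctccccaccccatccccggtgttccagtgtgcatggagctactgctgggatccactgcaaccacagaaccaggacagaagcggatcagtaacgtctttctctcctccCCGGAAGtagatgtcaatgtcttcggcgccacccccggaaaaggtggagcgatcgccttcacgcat
Cox7a1: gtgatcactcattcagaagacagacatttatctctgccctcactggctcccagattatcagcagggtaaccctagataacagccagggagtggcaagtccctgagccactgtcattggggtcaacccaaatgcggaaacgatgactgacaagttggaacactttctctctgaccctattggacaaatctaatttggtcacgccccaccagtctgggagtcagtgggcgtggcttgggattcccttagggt
The Atp5k window holds 1 NRF1 match and 13 CpG dinucleotides, the Uqcr11 window 1 ETS match and 11 CpG, and the Cox7a1 window no match of either motif and 4 CpG.

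Between 18981 and 21718 of 45281 probes were detected per array. Sample 6 of the Tumor group stood apart, with a Pearson correlation of 0.900 and 0.925 with its group's samples 4 and 5 over all genes and of 0.975 with Tumor+Allo/Y sample 9. Sample 8 correlated at 0.960 and 0.954 with the other Tumor+Allo/Y samples at 1 week, and at 0.983 and 0.982 with Tumor samples 4 and 5. The cell make-up of the arrays differed by marker genes. All 23 measured pan-leukocyte genes were called higher than in Allo/Y in each of the other 3 groups, and their mean log2 signal was 11.00 to 11.27 at day 28, 10.90 to 11.30 in Tumor+Allo/Y, 10.83 to 11.35 in Tumor and 8.91 to 9.13 in Allo/Y. Of 23 measured markers of prostate and seminal vesicle epithelium 6, 12 and 13 were called lower than in Allo/Y at day 28, in Tumor+Allo/Y and in Tumor, and none higher. Their mean was 9.70 to 10.42 at day 28, 8.78 to 10.13 in Tumor+Allo/Y, 7.56 to 10.04 in Tumor and 11.04 to 11.80 in Allo/Y, while Epcam, a defining epithelial marker, was detected on 0 arrays. In such bulk samples fewer cells of a type and less RNA per cell cannot be told apart.

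By limma's moderated F test 20 of the 80 respiratory chain genes differed among the 4 groups at an adjusted p under 0.05, against 45.7% of all genes. They were 9 of 42 with complex I symbols, 0 of 3 of complex II, 4 of 7 of complex III, 5 of 12 of complex IV and 2 of 16 of complex V. The count was 10, 8, 9, 12, 13, 11 and 10 without sample 1, 2, 3, 7, 9, 10 or 11, and 35 without samples 6 and 8. The share of all genes in these fits is not given here. Within groups the median SD of the members was 0.115 at day 28, 0.175 in Tumor+Allo/Y, 0.196 in Tumor and 0.0759 in Allo/Y. For all genes it was 0.194, 0.254, 0.290 and 0.133 in that order of groups.

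The members' mean level, each gene centred on its mean over the 12 arrays, was set apart on single arrays. It was −0.19, −0.18 and −0.04 at day 28, −0.00, −0.03 and 0.20 in Tumor+Allo/Y, −0.08, −0.00 and 0.32 in Tumor, and −0.00, 0.01 and −0.00 in Allo/Y. Samples 6 and 9 were the highest, each above the other arrays of its own group, and samples 10 and 11 of day 28 were the lowest. Complex II was highest on the same arrays, at 0.83 on sample 6 and 0.48 on sample 9. Over the 22 members with a mean log2 signal under 9 sample 6 stood at 0.54 and sample 9 at 0.40, while the mean over all genes was −0.07 and −0.04 there. Samples 6 and 9 also had the highest neutrophil marker means (9.58 and 9.51, against 7.42 to 8.88 elsewhere) and the lowest epithelial means (7.56 and 8.78), whose part in this was not tested.

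**Figure D1:**
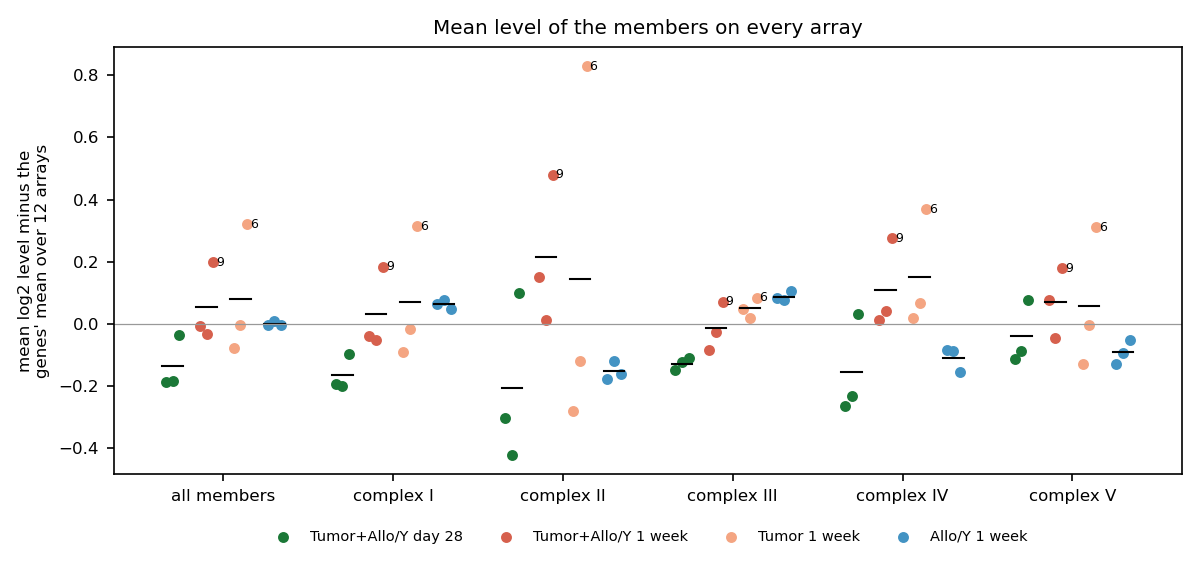
Mean log2 level of the members on every array, for all 80 and by complex, each gene centred on its mean over the 12 arrays. Points are arrays, short lines are group means, and samples 6 and 9 are numbered. Samples 6 (0.32) and 9 (0.20) lie above the other arrays for all members, and the means of the day 28 arrays lie between −0.19 and −0.04.

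**Figure D2:**
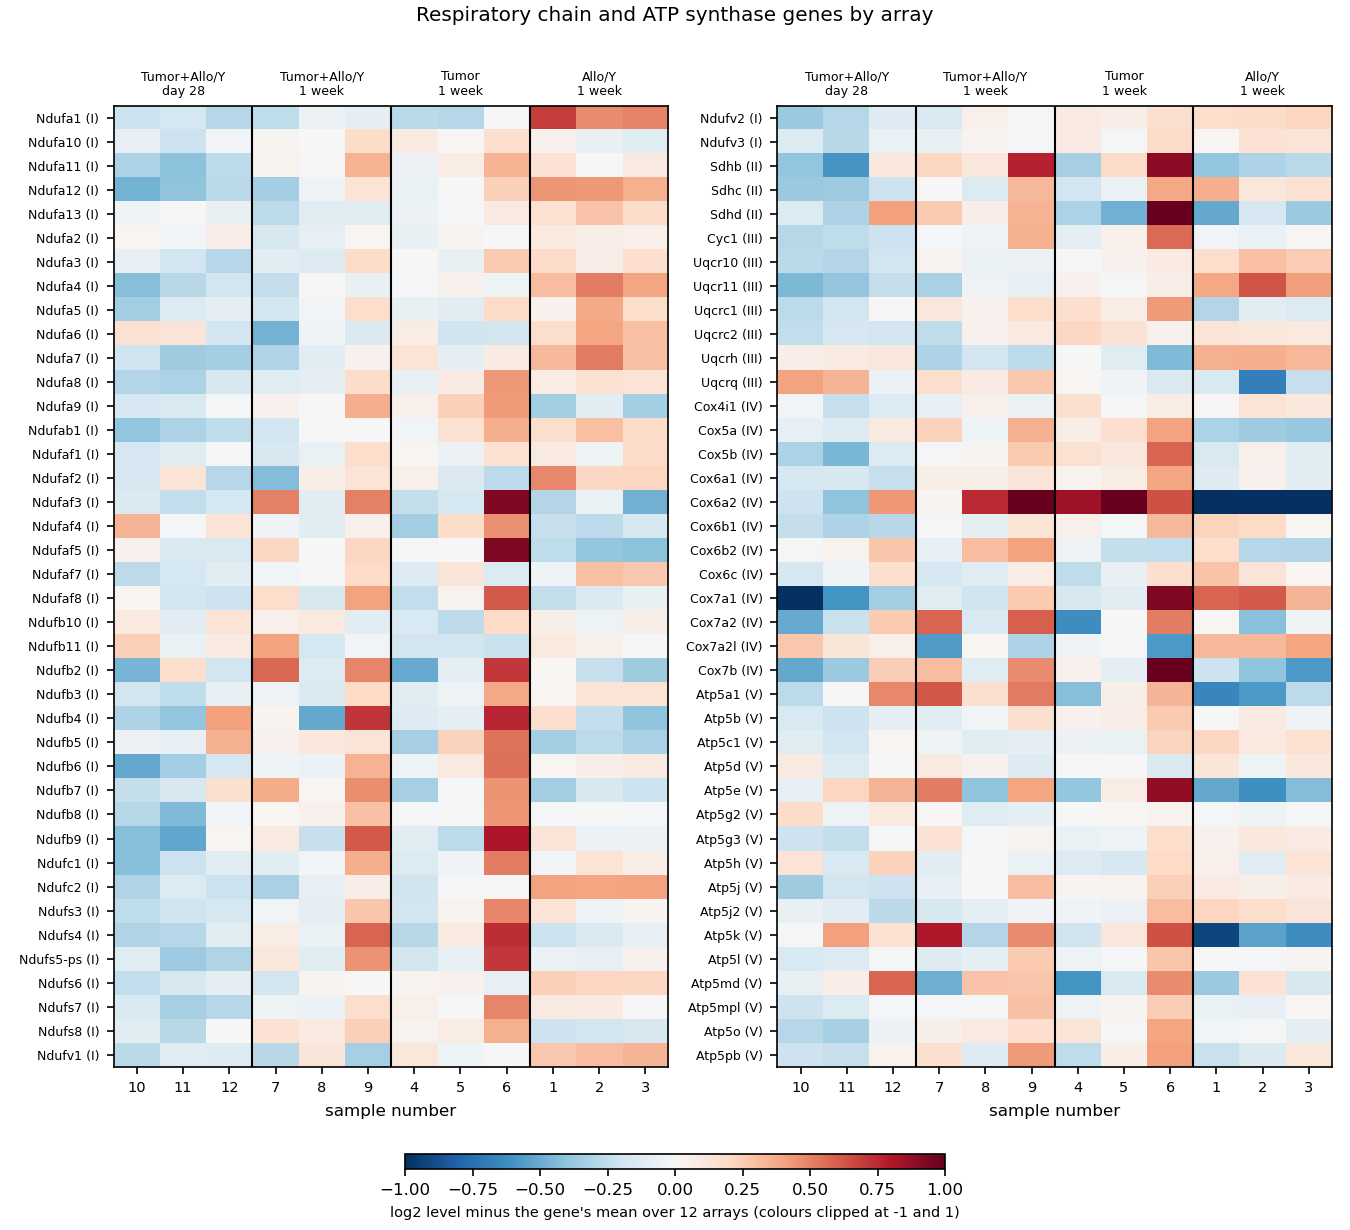
Log2 level of each of the 80 members on each array minus the gene's mean over the 12 arrays, with groups side by side and the complex in brackets. The scale ends at −1 and 1. Ndufa1, Uqcr11 and Ndufc2 are high in the 3 Allo/Y arrays, Cox6a2 is low there, and many genes are high on sample 6.

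Tumor+Allo/Y was set against Allo/Y at 1 week to ask what Tumor transfer adds to Allo/Y transfer. Allo/Y is thus no untreated baseline, here or in the other comparisons with it. Cox6a2, the muscle isoform of a complex IV subunit, and Atp5k, a small membrane subunit of ATP synthase, were the only members that differed by more than 1 on the log2 scale (2.5% of members, against 27.5% of all genes). With arrays on a common distribution 7 members were called higher and 12 lower, against 20.6% and 27.3% of all genes (47.9% in either direction), and 61 were not called. The median difference was 0.00 over the members and −0.04 over all genes. The groups did not overlap for 41 of 80 members, against 62.1% of all genes. The split depended on the scaling. With arrays only brought to a common median it was 12 higher and 0 lower (42.8% of all genes called), the members' median being 0.22 and that of all genes 0.08. With the pan-leukocyte mean held equal it was 0 higher and 79 lower (94% of all genes called), with medians of −2.13 and −2.18. Higher calls numbered 4, 3 and 4 without sample 1, 7 or 9, and lower calls numbered 6 without sample 7. The share of all genes called with a single array left out is not given here. Whether those changes are particular to the members cannot be told. Without samples 6 and 8 there were 19 higher calls, where 60.3% of all genes were called. With the epithelial mean as a covariate 1 of the 7 higher calls was kept, that of Cox6a2, and 5 of the 12 lower calls were, those of Ndufa1, Ndufa7, Ndufa12, Ndufc2 and Uqcr11. The share of all genes called fell there too, from 47.9% to 20.3%. The epithelial mean did not overlap between Allo/Y and the other groups, so covariate and group are hard to separate.

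Tumor against Allo/Y at 1 week compares different transfers. It gave 7 members higher and 6 lower than Allo/Y, against 18.2% and 22% of all genes (40.2% in either direction). The groups did not overlap for 30 of 80 members, against 57.1% of all genes, and the median difference was 0.04. On a common median the split was 7 higher and 1 lower (32.9% of all genes called). With equal pan-leukocyte means it was 0 higher and 79 lower (93.9% of all genes called). Higher calls numbered 2, 3, 2, 12 and 2 without sample 1, 2, 3, 4 or 6, and lower calls numbered 3 without sample 2. Here and for day 28 below, the share of all genes called with a single array left out is not given. With the epithelial covariate 1 of the 7 higher and 1 of the 6 lower calls were kept, those of Cox6a2 and Ndufa1. Of all genes 10.4% were called with that covariate, against 40.2% without it. Day 28 of Tumor+Allo/Y differs from Allo/Y in treatment and in time. There 3 members were called higher and 15 lower, against 18.9% and 24.4% of all genes (43.3% in either direction), with a median of −0.21 over the members and −0.05 over all genes, and the groups did not overlap for 50 of 80 members, against 64.7%. On a common median the split was 5 higher and 8 lower (36.3% of all genes called). With equal pan-leukocyte means it was 0 higher and 80 lower (94.4% of all genes called). Higher calls numbered 1 without sample 2 or 11. With the epithelial covariate 2 of the 3 higher and 13 of the 15 lower calls were kept, and those of Atp5k, Ndufs6 and Ndufv1 were lost. The share of all genes called was then 37.5%, against 43.3%. These comparisons share the 3 Allo/Y arrays. In at least 1 of them 28 members were called (35%, against 59.1% of all genes), and in all 3 of them 6 were (7.5%, against 29.3%). In none of the 5 comparisons made were 52 members called (65%, against 40.9% of all genes).

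**Figure D3:**
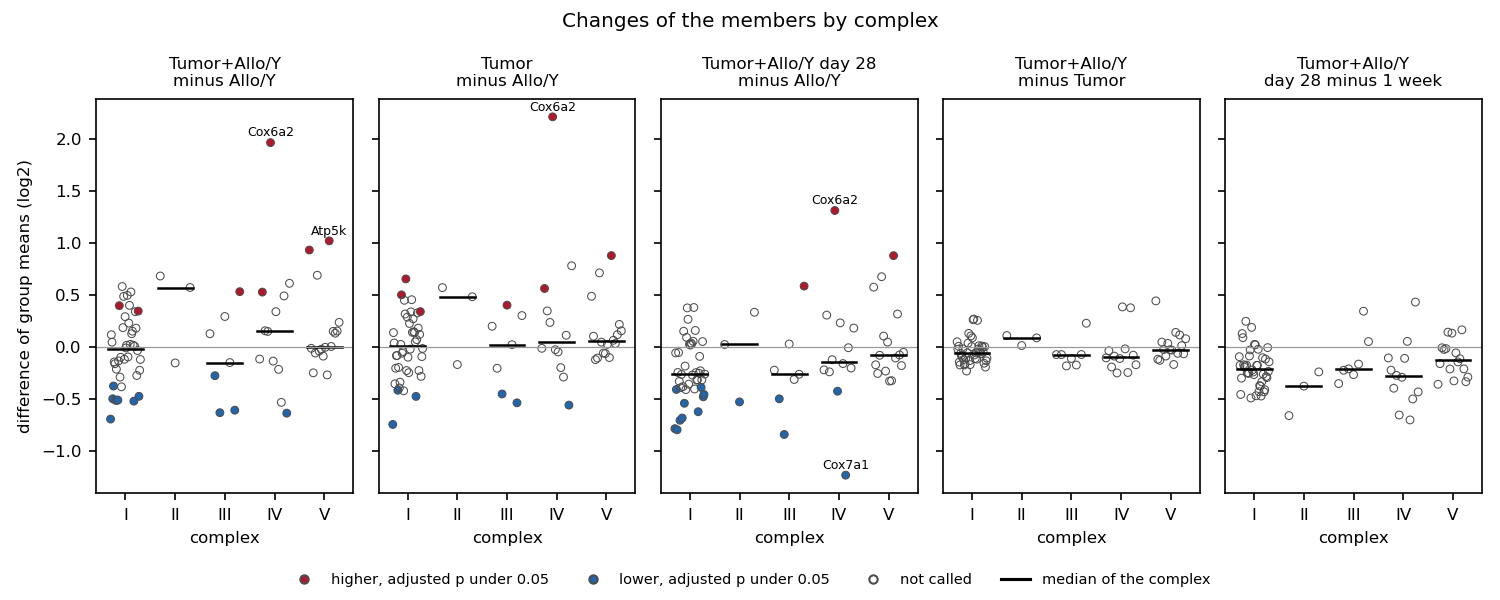
Log2 difference of group means for each member in 5 comparisons, by complex. Filled points passed an adjusted p under 0.05 after quantile normalization (red higher, blue lower), open points did not, and bars are medians of a complex. Cox6a2 is highest in the 3 comparisons with Allo/Y, and no point is filled in Tumor+Allo/Y against Tumor or in day 28 against 1 week.

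Of the complex I genes, 10, 8 and 3 were called lower than in Allo/Y at day 28, in Tumor+Allo/Y and in Tumor, and 0, 2 and 3 higher. Of all genes 24.4%, 27.3% and 22% were called lower there, so the complex I counts were near or under the background. Of the 28 supernumerary subunits, which surround the catalytic core and make up most of the complex I members, 7, 6 and 2 were called lower. Ndufa1, a small membrane subunit needed for assembly of the complex, had log2 signals of 12.41, 12.45 and 12.34 at day 28, 12.38, 12.57 and 12.53 in Tumor+Allo/Y, 12.36, 12.35 and 12.62 in Tumor and 13.32, 13.10 and 13.13 in Allo/Y. All 9 arrays of the other groups were below all 3 Allo/Y arrays. Ndufa1 differed by −0.78 ± 0.12 (SE) at day 28 (adjusted p = 0.000703), by −0.69 ± 0.12 in Tumor+Allo/Y (adjusted p = 0.00154) and by −0.74 ± 0.12 in Tumor (adjusted p = 0.00157). On a common median the Tumor+Allo/Y difference was −0.44 and was not called.

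Ndufc2, another supernumerary membrane subunit, was also called lower in all 3 comparisons with Allo/Y. It had 11.74, 11.91 and 11.83 at day 28, 11.72, 11.96 and 12.11 in Tumor+Allo/Y, 11.84, 12.02 and 12.06 in Tumor and 12.45, 12.44 and 12.45 in Allo/Y. The Allo/Y arrays lay above all others. The differences were −0.62 ± 0.13, −0.52 ± 0.13 and −0.47 ± 0.13 for day 28, Tumor+Allo/Y and Tumor (adjusted p = 0.00308, 0.00757 and 0.0150). Ndufa4, the complex IV subunit with a complex I symbol, had 12.34, 12.49 and 12.58 at day 28, 12.52, 12.77 and 12.69 in Tumor+Allo/Y, 12.74, 12.81 and 12.72 in Tumor and 13.07, 13.28 and 13.16 in Allo/Y. It too was highest on the 3 Allo/Y arrays. The differences for Ndufa4 were −0.70 ± 0.12, −0.51 ± 0.12 and −0.41 ± 0.12 (adjusted p = 0.00104, 0.00579 and 0.0195), the last lost without sample 2 or 3. On a common median neither gene was called in Tumor+Allo/Y or in Tumor.

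Ndufa12, an accessory subunit of the arm that binds NADH, had 10.77, 10.84 and 10.97 at day 28, 10.90, 11.19 and 11.38 in Tumor+Allo/Y, 11.18, 11.25 and 11.49 in Tumor and 11.68, 11.68 and 11.60 in Allo/Y. Allo/Y lay above all other arrays, and Tumor+Allo/Y overlapped both day 28 and Tumor. It was called lower at day 28 (−0.79 ± 0.14, adjusted p = 0.00165) and in Tumor+Allo/Y (−0.50 ± 0.14, adjusted p = 0.0170, lost without sample 1 or 7). Ndufa7, also supernumerary, was called lower at day 28 (−0.68 ± 0.13) and in Tumor+Allo/Y (−0.51 ± 0.13), and Ndufa6 (−0.51 ± 0.16) and Ndufa13 (−0.37 ± 0.10) were called lower in Tumor+Allo/Y. At day 28 Ndufab1, the mitochondrial acyl carrier protein, differed from Allo/Y by −0.54 ± 0.13, Ndufa11 by −0.41 ± 0.14 and Ndufs6 by −0.39 ± 0.11. The call of Ndufa6 was lost without sample 2, 3 or 7, that of Ndufa13 without sample 2 or 7, that of Ndufs6 without sample 10, and that of Ndufa11 without any 1 of the 6 arrays compared. Ndufs6 had 2 kept probes, and its call was also lost when their mean was used.

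Some of the core subunits carry the flavin and iron-sulfur clusters, and the called core subunits differed in direction. Ndufv1, which binds NADH, had 11.68, 11.84 and 11.82 at day 28, 11.67, 12.07 and 11.62 in Tumor+Allo/Y, 12.07, 11.91 and 11.96 in Tumor and 12.22, 12.26 and 12.29 in Allo/Y. It was called lower at day 28 (−0.48 ± 0.13, adjusted p = 0.0164, lost without sample 3 or 10) and in Tumor+Allo/Y (−0.47 ± 0.13, adjusted p = 0.0159, lost without sample 3, 7 or 9). Ndufv2, its partner, was called lower at day 28 (−0.45 ± 0.11, adjusted p = 0.00769). Ndufs8, which holds iron-sulfur clusters next to the membrane arm, stood the other way at 1 week. It had 11.74, 11.68 and 11.83 in Tumor+Allo/Y, 11.62, 11.66 and 11.94 in Tumor and 11.38, 11.40 and 11.43 in Allo/Y, with 11.47, 11.31 and 11.59 at day 28. It was called at 0.35 ± 0.12 in Tumor+Allo/Y (adjusted p = 0.0403, lost without sample 1, 2, 3, 7 or 9) and 0.34 ± 0.12 in Tumor (adjusted p = 0.0489, lost without sample 1, 2, 3, 5 or 6). Ndufs3 and Ndufs7, the other measured core subunits, were not called in any comparison.

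Ndufa9, a supernumerary subunit that helps to stabilise the junction of the arms, had 11.76, 11.77 and 11.91 at day 28, 11.97, 11.93 and 12.29 in Tumor+Allo/Y, 11.98, 12.16 and 12.35 in Tumor and 11.59, 11.81 and 11.58 in Allo/Y. At 1 week both groups lay above Allo/Y without overlap. Ndufa9 was called higher in Tumor+Allo/Y (0.40 ± 0.14, adjusted p = 0.0425, lost without sample 1, 3, 7 or 9) and in Tumor (0.50 ± 0.14, adjusted p = 0.0204, lost without sample 1, 3 or 6). Of 7 assembly factors, which build the complex without staying in it, only Ndufaf5 was called. It had 8.07, 8.09 and 9.02 in Tumor against 7.84, 7.70 and 7.68 in Allo/Y, with sample 6 the highest and all 3 Tumor arrays above Allo/Y (0.65 ± 0.22, adjusted p = 0.0403, lost without sample 1, 2, 3 or 6). Without sample 6 the Ndufaf5 difference was 0.34 (limma's adjusted p = 0.0698). With the epithelial mean as a covariate that difference was −0.04.

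Complex II was not called in any comparison but for Sdhc. Sdhb, the iron-sulfur subunit, had 9.92, 9.72 and 10.41 at day 28, 10.52, 10.42 and 11.08 in Tumor+Allo/Y, 9.98, 10.50 and 11.21 in Tumor and 9.93, 10.01 and 10.04 in Allo/Y. Tumor+Allo/Y lay above Allo/Y without overlap, by 0.68 ± 0.30 (adjusted p = 0.0818), and a second Sdhb probe gave 0.80 ± 0.28 and passed when all probes were tested together (adjusted p = 0.0380). Sdhd, a membrane anchor, had the largest spread of any member in a group, with an SD of 0.931 in Tumor (6.78, 6.62 and 8.31). Sdhc, the other anchor, had 10.47, 10.48 and 10.64 at day 28 against 11.21, 10.96 and 11.00 in Allo/Y. The groups did not overlap, and the difference of −0.53 ± 0.17 (adjusted p = 0.0326) was lost without any 1 of those 6 arrays.

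In complex III 4 of 7 members passed the F test, all of them small subunits, and 45.7% of all genes passed it. With 7 members that count is near the background. Uqcr11, the smallest subunit, had 11.89, 11.95 and 12.11 at day 28, 12.02, 12.29 and 12.27 in Tumor+Allo/Y, 12.39, 12.33 and 12.41 in Tumor and 12.73, 12.97 and 12.76 in Allo/Y. All Allo/Y arrays were above all others. It differed by −0.84 ± 0.12 at day 28 (adjusted p = 0.000489), by −0.63 ± 0.12 in Tumor+Allo/Y (adjusted p = 0.00254) and by −0.45 ± 0.12 in Tumor (adjusted p = 0.0168, lost without sample 2). Uqcr10, a small subunit at the membrane, had 13.14, 13.12 and 13.22 at day 28, 13.45, 13.34 and 13.35 in Tumor+Allo/Y, 13.41, 13.45 and 13.50 in Tumor and 13.59, 13.71 and 13.67 in Allo/Y. It was called lower at day 28 (−0.50 ± 0.10, adjusted p = 0.00280) and in Tumor+Allo/Y (−0.27 ± 0.10, adjusted p = 0.0417), where leaving out any 1 of the 6 arrays ended the call.

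Uqcrh, the hinge protein that helps cytochrome c bind, was called lower in both 1-week groups. It had 13.60, 13.63 and 13.65 at day 28, 13.23, 13.34 and 13.28 in Tumor+Allo/Y, 13.55, 13.42 and 13.10 in Tumor and 13.89, 13.90 and 13.87 in Allo/Y. The day 28 arrays lay between those of Tumor+Allo/Y and those of Allo/Y. The differences were −0.60 ± 0.12 in Tumor+Allo/Y (adjusted p = 0.00330) and −0.53 ± 0.12 in Tumor (adjusted p = 0.00831). Neither Uqcrh call was kept on a common median (−0.32 and −0.32) or with the epithelial covariate (−0.35 and −0.26). Uqcrq, another small subunit, was called in the other direction. It had 9.85, 9.79 and 9.39 at day 28, 9.63, 9.53 and 9.72 in Tumor+Allo/Y, 9.47, 9.42 and 9.31 in Tumor and 9.30, 8.77 and 9.22 in Allo/Y. It was called higher at day 28 (0.59 ± 0.17, adjusted p = 0.0181, lost without sample 2, 10 or 11) and in Tumor+Allo/Y (0.53 ± 0.17, adjusted p = 0.0253, lost without sample 2, 7 or 9). Of the core proteins, Uqcrc1 was called higher in Tumor (0.40 ± 0.13, adjusted p = 0.0304, lost without sample 1, 2, 3 or 6). Uqcrc2 and the electron carrier Cyc1, cytochrome c1, were not called in any comparison.

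**Figure D4:**
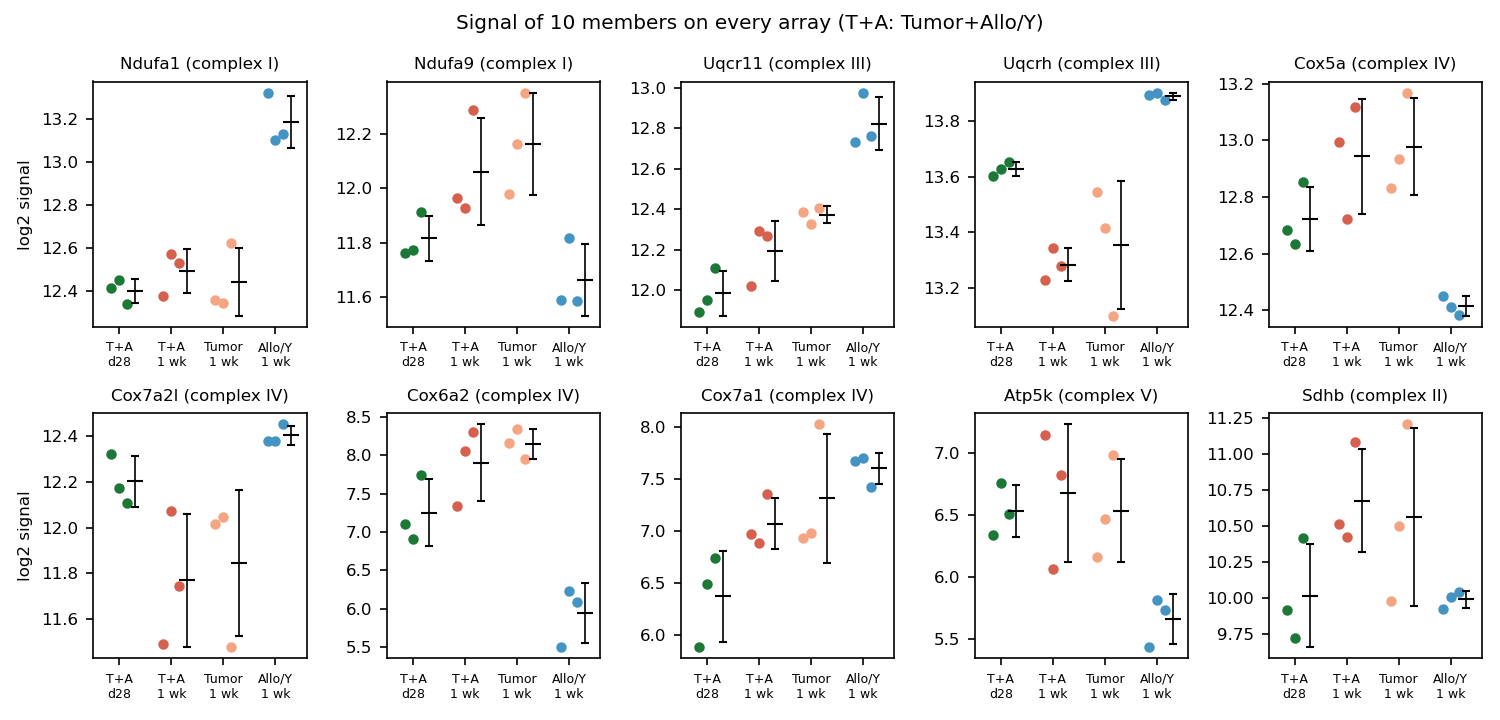
Log2 signal of 10 members on every array, with the group mean and SD (n = 3 arrays). Each panel has its own axis. Ndufa1 and Uqcr11 are highest in the 3 Allo/Y arrays, Cox6a2 and Atp5k are lowest there, and Cox7a1 is lowest at day 28.

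Complex IV held the largest difference of any member. Cox6a2, the isoform of heart and skeletal muscle, had 7.10, 6.91 and 7.74 at day 28, 7.34, 8.06 and 8.31 in Tumor+Allo/Y, 8.16, 8.34 and 7.95 in Tumor and 5.50, 6.23 and 6.09 in Allo/Y. All 9 arrays of the other groups were above all Allo/Y arrays. Its probe was detected on all 12 arrays, but the Allo/Y signals were low. The lowest of them lay within the range of Cox6b2, described below as near the detection limit. The fold values thus rest on a dim baseline. Cox6a2 was 1.31 ± 0.30 higher at day 28 (2.48-fold, adjusted p = 0.00571), 1.96 ± 0.30 higher in Tumor+Allo/Y (3.89-fold, adjusted p = 0.000725) and 2.21 ± 0.30 higher in Tumor (4.62-fold, adjusted p = 0.000570). With equal pan-leukocyte means the differences were −0.82, −0.17 and 0.21, where the medians of all genes were −2.18, −2.18 and −2.02. Its ubiquitous counterpart Cox6a1 was not called, with group means of 13.03 ± 0.04, 13.30 ± 0.04, 13.39 ± 0.20 and 13.15 ± 0.10 (SD, n = 3 each) at day 28, in Tumor+Allo/Y, in Tumor and in Allo/Y.

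Of 13 annotated skeletal muscle markers 7 were kept, and Ckm, Myh1, Myh4 and Casq1 were detected on 0 arrays. Against Allo/Y 2 of the 7 were called higher and 1 lower at day 28, 1 higher and 2 lower in Tumor+Allo/Y, and 2 higher and 1 lower in Tumor. Of all genes 43.3%, 47.9% and 40.2% were called there. The mean log2 signal of the 7 was 6.81 to 7.09 at day 28, 6.45 to 7.48 in Tumor+Allo/Y, 5.98 to 8.02 in Tumor and 6.96 to 7.53 in Allo/Y. Their part in the Cox6a2 difference was not tested. Cox7a1, another isoform of muscle tissue, was lowest at day 28, with 5.88, 6.49 and 6.74 against 7.67, 7.70 and 7.42 in Allo/Y. It was called lower there (−1.23 ± 0.30, 0.427-fold, adjusted p = 0.00859), and its levels at 1 week were 6.97, 6.89 and 7.35 in Tumor+Allo/Y and 6.93, 6.98 and 8.02 in Tumor. Cox6b2, a testis isoform, was near the detection limit at 5.09 to 5.78 and was not called in any comparison.

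Cox5a, a general subunit of complex IV, had 12.68, 12.63 and 12.85 at day 28, 12.99, 12.72 and 13.12 in Tumor+Allo/Y, 12.83, 12.93 and 13.17 in Tumor and 12.45, 12.41 and 12.38 in Allo/Y. Every array of the other groups was above Allo/Y. It was called higher in Tumor+Allo/Y (0.53 ± 0.14, adjusted p = 0.0108) and in Tumor (0.56 ± 0.14, adjusted p = 0.0106). With the epithelial covariate the Cox5a differences were 0.23 and 0.23, and neither was called. Cox7a2l, which helps to join complexes III and IV into supercomplexes, ran the other way. It had 12.32, 12.17 and 12.11 at day 28, 11.49, 12.07 and 11.74 in Tumor+Allo/Y, 12.02, 12.04 and 11.48 in Tumor and 12.38, 12.38 and 12.45 in Allo/Y. Cox7a2l was called lower in Tumor+Allo/Y (−0.63 ± 0.18, adjusted p = 0.0170, lost without sample 3 or 7) and in Tumor (−0.56 ± 0.18, adjusted p = 0.0351, lost without sample 1, 2, 3 or 6). Cox6b1, a small subunit facing cytochrome c, was called lower at day 28 (−0.42 ± 0.13, adjusted p = 0.0208, lost without sample 1, 2, 11 or 12). Cox4i1, Cox5b, Cox6c, Cox7a2 and Cox7b, which are general subunits as well, were not called in any comparison.

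Of the 16 ATP synthase genes 2 passed the F test (12.5%, against 45.7% of all genes). Atp5k, the subunit e of its membrane part, had 6.34, 6.76 and 6.51 at day 28, 7.15, 6.06 and 6.82 in Tumor+Allo/Y, 6.16, 6.46 and 6.99 in Tumor and 5.43, 5.82 and 5.73 in Allo/Y. All 9 arrays of the other groups were above Allo/Y. Atp5k was detected on all 12 arrays, but its Allo/Y signals were low, near those of Cox6b2. It was higher by 0.88 ± 0.29 at day 28 (adjusted p = 0.0300, lost without sample 1, 2, 3, 11 or 12), by 1.02 ± 0.29 in Tumor+Allo/Y (adjusted p = 0.0145, lost without sample 1 or 7) and by 0.88 ± 0.29 in Tumor (adjusted p = 0.0327, lost without sample 1, 2, 3, 5 or 6). Atp5a1, the alpha subunit of the catalytic head, had 9.07, 8.61 and 8.97 in Tumor+Allo/Y against 7.80, 7.87 and 8.19 in Allo/Y. The groups did not overlap, and it was called higher (0.93 ± 0.24, adjusted p = 0.0102), but with the epithelial covariate the difference was 0.48 and was not called. A dimmer Atp5a1 probe was called at day 28 (1.41 ± 0.17, adjusted p = 0.000123 over all probes), in Tumor+Allo/Y (0.79 ± 0.17) and in Tumor (0.71 ± 0.17), where the used probe gave 0.58 ± 0.24 at day 28 and 0.49 ± 0.24 in Tumor without a call. The beta subunit Atp5b, which forms the catalytic sites with Atp5a1, had group means of 14.39 ± 0.05, 14.55 ± 0.14, 14.66 ± 0.12 and 14.56 ± 0.06 at day 28, in Tumor+Allo/Y, in Tumor and in Allo/Y, and was not called. The same held for the gamma subunit Atp5c1 and for the ring subunits Atp5g2 and Atp5g3.

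Tumor+Allo/Y was set against Tumor at 1 week to ask what Allo/Y adds to Tumor transfer. No member was called, as no gene of the 11971 was (0%). At an unadjusted p under 0.05 the count was 1 of 80 members, against 3.77% of all genes, and the groups did not overlap for 5 members, against 6.64%. The differences ran from −0.25 for Cox6a2 to 0.44 for Atp5a1, with a median of −0.06 over the members and −0.04 over all genes. This depended on the arrays that stood apart. Leaving out samples 6 and 8 left 2 arrays in each group, and 21.9% of all genes were called. Then 7 members were called higher, from Atp5e, Atp5k, Ndufb7, Sdhd and Ndufaf3 at 0.60 to 0.71 to Ndufb2 (0.83 ± 0.23) and Cox7a2 (0.90 ± 0.27). None was called lower. Samples 6 and 8 stood apart in these same values, each close to arrays of the other group, so these calls are no separate support.

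The 28-day group was set against the 1-week group of Tumor+Allo/Y to ask what changes with time. No member was called by its used probe, against 2.05% of all genes (1.7% higher and 0.351% lower), and 13 members had an unadjusted p under 0.05, against 20.3% of all genes. The members leaned one way, with 67 of 80 lower at day 28, against 5996 of all 11971 genes. Their median was −0.21, where the median of all genes was −0.00. On single arrays their mean was lowest on samples 10 and 11 (−0.19 and −0.18) and highest on sample 9 (0.20). Sample 12 (−0.04) was level with sample 8 of 1 week (−0.03). The lean was not particular to the members, as 72 mitochondrial ribosomal genes had a median of −0.24. It was not shared by all genes of the chain. The 7 measured subunits encoded by mitochondrial DNA had a median of 0.25, with 0 called. Medians were −0.12 for 33 assembly factors and −0.11 for 15 genes of the citric acid cycle and pyruvate dehydrogenase. The groups did not overlap for 30 members, against 23.7% of all genes. On a common median 74 were lower, with medians of −0.38 and −0.04, and with the epithelial mean as a covariate 60 were lower. By complex the median was −0.21 for complex I, −0.37 for II, −0.21 for III, −0.28 for IV and −0.13 for V. The leukocyte make-up differed by marker means as well. T cell markers stood at 11.39 at day 28 and 10.04 at 1 week, with 4 of 10 called higher. Monocyte and macrophage markers stood at 10.60 and 11.30 (0 of 11 called), and neutrophil markers at 8.02 and 8.92 (1 of 9 called lower). Their part in the members' differences was not tested.

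Sdhb and Cox7a1 had the lowest differences over time. Sdhb differed by −0.66 ± 0.30 (adjusted p = 0.249) and Cox7a1 by −0.70 ± 0.30 (adjusted p = 0.233), with the arrays given above, and neither group pair overlapped. Uqcrh and Cox7a2l were the highest, by 0.34 ± 0.12 (adjusted p = 0.165) and 0.43 ± 0.18 (adjusted p = 0.224), again without overlap. Both stood between Allo/Y and the 1-week group at day 28. The smallest adjusted p was that of Ndufa11, a membrane arm subunit, which had 10.65, 10.55 and 10.70 at day 28 and 10.99, 10.96 and 11.31 at 1 week (−0.45 ± 0.14, adjusted p = 0.114). Without samples 6 and 8, which leaves samples 7 and 9 at 1 week, 26% of all genes were called, and 12 members were called lower and 2 higher. Among them were Sdhb (−0.78 ± 0.24), Cox7a1 (−0.79 ± 0.23), Ndufa11 (−0.52 ± 0.13), Uqcrh (0.38 ± 0.11) and Cox7a2l (0.58 ± 0.13). Samples 6 and 8 stood apart in these same values, so these calls are no separate support either.

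More than 1 kept probe was available for 26 members. In Tumor+Allo/Y against Allo/Y the probes of 5 of them differed in sign, in Tumor against Allo/Y 5, and at day 28 against Allo/Y 13, and in 0 cases were probes of a gene called in opposite directions. A probe not used was called while the used one was not for 4, 2 and 5 members in these comparisons, and for 1 member at day 28 against 1 week. That member was Ndufaf4, a complex I assembly factor, whose dimmer probe gave 0.78 ± 0.15 (adjusted p = 0.0315 over all probes) and whose used probe gave 0.19 ± 0.19. In Tumor+Allo/Y against Allo/Y Atp5pb, a peripheral stalk subunit, was one of them, since its used probe gave 0.24 ± 0.20 in Tumor+Allo/Y and a dimmer probe 0.71 ± 0.17 (adjusted p = 0.00764 over all probes).

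Other genes of the chain were read from lists. Cycs, the cytochrome c that carries electrons from complex III to IV, was higher than Allo/Y in Tumor+Allo/Y (1.06 ± 0.27, adjusted p = 0.00927) and in Tumor (0.90 ± 0.27, adjusted p = 0.0232), and was 0.46 ± 0.27 higher at day 28 without passing. Atpif1, which blocks the reverse action of ATP synthase, was lower at day 28 (−0.77 ± 0.18), in Tumor+Allo/Y (−0.84 ± 0.18) and in Tumor (−0.58 ± 0.18). Of 7 measured subunits encoded by mitochondrial DNA 2 were called higher and 1 lower at day 28 against Allo/Y, 1 higher in Tumor+Allo/Y and 0 in Tumor, where 43.3%, 47.9% and 40.2% of all genes were called. ND5 of complex I was 0.55 ± 0.13 higher at day 28 and 0.77 ± 0.13 higher in Tumor+Allo/Y, and COX2 of complex IV was 0.64 ± 0.23 higher at day 28. CYTB, the cytochrome b of complex III, was called lower at day 28 (−0.42 ± 0.13).

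Among 33 measured assembly factors 3 were called higher and 11 lower at day 28 against Allo/Y, 7 higher and 4 lower in Tumor+Allo/Y, and 5 higher and 3 lower in Tumor. The shares of all genes were 18.9% higher and 24.4% lower at day 28, 20.6% and 27.3% in Tumor+Allo/Y, and 18.2% and 22% in Tumor. Ttc19, a complex III factor, was 1.45 ± 0.20 higher at day 28 and 1.03 ± 0.20 higher in Tumor+Allo/Y. Coa3 and Coa6, which act in the assembly of complex IV, were called lower in all 3, with differences for Coa3 of −0.99 ± 0.13, −0.72 ± 0.13 and −0.51 ± 0.13 at day 28, in Tumor+Allo/Y and in Tumor. Of 15 genes of the citric acid cycle and pyruvate dehydrogenase 1 was called higher and 5 lower at day 28, 3 higher and 3 lower in Tumor+Allo/Y, and 2 higher and 2 lower in Tumor, beside the same shares of all genes. Pdha1, the alpha subunit of pyruvate dehydrogenase, was called lower in all 3, with differences of −0.65 ± 0.11, −0.69 ± 0.11 and −0.56 ± 0.11. Dlst, of the oxoglutarate dehydrogenase complex, was higher in Tumor+Allo/Y (0.73 ± 0.19) and in Tumor (0.61 ± 0.19).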

How the data were processed

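Total RNA of CD45+ cells from 12 prostates was hybridised to Illumina BeadChips, with 3 arrays in each of 4 groups named by the labels' treatment. The authors deposited a raw signal intensity and a detection p-value per probe and array, and a normalized intensity table, which served as an alternative. Per the submitters' processing notes GenomeStudio was used, with version and settings not given in the sources used here. That the raw intensity is linear and not normalized was read from the values, since the deposited files do not state it. In R 4.3.3, limma 3.58.1 (neqc) estimated background by way of detection p-values and returned quantile-normalized log2 values (offset 16). Quantile normalization gives every array the same distribution, so a change shared by most genes cannot appear. Gene names came from GEO's platform annotation, which can be old: of 23054 probes kept, 19235 had 1 symbol, 12 several and 3807 none. The brightest kept probe stood for a gene. All 12 arrays entered 1 limma model of group means (8 residual degrees of freedom), and adjusted p-values are two-sided Benjamini-Hochberg values over 11971 genes within a comparison, called under 0.05. Differences are given ± SE of that fit, and group means ± SD. Probe p-values, given above as over all probes, were adjusted over the 19235 kept probes with 1 symbol. Exact tests on 3 against 3 arrays were not used. The p-values set each difference against the spread between arrays within groups, pooled over the 4 groups. That spread differed between groups, and the number of arrays limits the precision. Members described in detail are a fixed list of chain components, up to 3 called members per comparison, complex and direction with the smallest p and no overlap of groups, and the 2 largest and 2 smallest differences per comparison; of other lists, up to 3 called genes per direction were eligible, and any member could be named. Members and lists were chosen with earlier results of these data known. The pipeline was tested on simulated data. The other settings are given under the processing section below.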

Additional observations from a re-analysis of the deposited data

How the results depend on the processing

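The counts of members called changed with several settings, and so did the share of all genes called. By the F test 47 members differed with array weights, 79 with equal pan-leukocyte means, 8 on a common median and 35 without samples 6 and 8, and leaving out 1 array gave 8 to 22. The shares of all genes in those F tests are not given here. For day 28 against Allo/Y the higher and lower counts were 9 and 34 with array weights, 6 and 25 without samples 6 and 8, 6 and 23 with only both groups in the fit, 0 and 80 with equal pan-leukocyte means, and 5 and 8 on a common median. The lower count there was 32 with the epithelial covariate, 24 from the authors' normalized table, 24 without background correction and 23 with an intensity trend, and the higher count was 6 with probe means. Of all genes 43.3% were called in the main fit. The share was 62% with array weights, 56.7% without samples 6 and 8 and 55.5% with only both groups. It was 94.4% with equal pan-leukocyte means, 36.3% on a common median and 37.5% with the epithelial covariate. For Tumor+Allo/Y against Allo/Y the higher and lower counts were 12 and 0 on a common median, 0 and 79 with equal pan-leukocyte means and 1 and 7 with the epithelial covariate. Of all genes 42.8%, 94% and 20.3% were called in these fits, against 47.9% in the main fit. The higher count was 19 with array weights, 19 without samples 6 and 8 and 12 with only both groups. There 65.9%, 60.3% and 49.6% of all genes were called. For Tumor against Allo/Y the higher and lower counts were 0 and 79 with equal pan-leukocyte means and 1 and 1 with the epithelial covariate. The lower count was 1 on a common median, and the higher count was 2 with array weights and 3 with only both groups. Of all genes 93.9%, 10.4%, 32.9%, 28.5% and 29.7% were called in these fits, against 40.2% in the main fit. Day 28 against 1 week gave 2 higher and 14 lower with array weights (23.9% of all genes called), and 2 and 12 without samples 6 and 8 (26%). Tumor+Allo/Y against Tumor gave 7 higher without samples 6 and 8, where 21.9% of all genes were called. Leaving out 1 array gave 1 to 2 higher and 11 to 13 lower for day 28 against Allo/Y, 3 to 9 and 6 to 11 for Tumor+Allo/Y against Allo/Y, 2 to 12 and 3 to 7 for Tumor against Allo/Y, and 0 for both other comparisons. The shares of all genes called in these leave-out fits are not given here, so the ranges are not read as a trait of the members.

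With equal pan-leukocyte means the sign turned, relative to medians of all genes of −2.18, −2.18 and −2.02 for day 28, Tumor+Allo/Y and Tumor. At day 28 Cox6a2 was at −0.82, Uqcrq at −1.55 and Atp5k at −1.26. In Tumor+Allo/Y Cox5a was at −1.61, Cox6a2 at −0.17, Atp5a1 at −1.20, Ndufs8 at −1.79, Ndufa9 at −1.74, Uqcrq at −1.60 and Atp5k at −1.11. In Tumor Uqcrc1 was at −1.60, Cox5a at −1.44, Ndufs8 at −1.66, Ndufa9 at −1.50, Atp5k at −1.12 and Ndufaf5 at −1.35. Adding the epithelium score to the model put Ndufaf5 at −0.043 in Tumor against Allo/Y. The shift itself lowers every value by construction; the cause of the other changes was not tested. Cyclic loess, the filter on all 12 arrays and no filter moved none of these counts by more than 1.5 times. No paired analysis was possible because sample numbers are not shared between groups, and a slide block was not run, since the headers give no slide.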

Other observations

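Nuclear genes for the mitochondrial ribosome, which makes the subunits encoded by mitochondrial DNA, were set against Allo/Y. Of 72 measured, 1 was called higher and 28 lower at day 28, 4 and 14 in Tumor+Allo/Y, and 6 and 9 in Tumor. Of all genes 18.9% were called higher and 24.4% lower at day 28, 20.6% and 27.3% in Tumor+Allo/Y, and 18.2% and 22% in Tumor. Mrps12 differed by −1.09 ± 0.10 at day 28, −0.85 ± 0.10 in Tumor+Allo/Y and −0.65 ± 0.10 in Tumor, and Mrpl14 by −1.19 ± 0.11, −0.88 ± 0.11 and −0.60 ± 0.11. Mrpl4 was higher in Tumor+Allo/Y (0.77 ± 0.22) and in Tumor (0.80 ± 0.22).

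Of 17 measured genes of fatty acid oxidation, which feeds electrons into the chain, 0 were called higher and 10 lower at day 28, 0 and 10 in Tumor+Allo/Y, and 1 and 7 in Tumor, all against Allo/Y and beside the same shares of all genes. Echs1, an enoyl-CoA hydratase, differed by −1.13 ± 0.13, −0.90 ± 0.13 and −0.59 ± 0.13, and Acaa2, a thiolase, by −1.12 ± 0.18, −1.12 ± 0.18 and −0.88 ± 0.18. The epithelial and pan-leukocyte means given above differ between the same groups, and their part was not tested.

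Of 15 measured regulators of mitochondrial biogenesis 3 were called higher and 3 lower than in Allo/Y at day 28, 3 and 4 in Tumor+Allo/Y, and 2 and 3 in Tumor, where 43.3%, 47.9% and 40.2% of all genes were called. Gabpa and Gabpb1, the subunits of the ETS factor GABP, were higher than in Allo/Y by 0.95 ± 0.15 and 1.99 ± 0.18 at day 28, by 0.76 ± 0.15 and 1.12 ± 0.18 in Tumor+Allo/Y, and by 0.83 ± 0.15 and 0.96 ± 0.18 in Tumor. Tfb1m, which modifies mitochondrial ribosomal RNA, differed by −0.83 ± 0.14, −0.82 ± 0.14 and −0.61 ± 0.14, and the helicase gene Twnk by −1.09 ± 0.15, −1.07 ± 0.15 and −1.03 ± 0.15. Gabpb1 was also higher at day 28 than at 1 week of Tumor+Allo/Y (0.87 ± 0.18, adjusted p = 0.0398).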
